A study of Mus musculus with 2 samples.

Results

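*Mif*, *Ddt*, *Cd74* and *Cd44*, the macrophage migration inhibitory factor (MIF) family and its receptor complex, were followed through the cells of a mouse lung tumor. They were picked by name rather than by a threshold on a value, although earlier results of these data were known, and are 4 of the 32285 genes counted, with 1520804 of the 924212398 UMIs of the series (a UMI is a transcript molecule counted once). Their levels were taken in 9 cell classes, each gated by its own list of marker genes, and compared between classes and between conditions. Lewis lung carcinoma (LLC) cells, a mouse lung cancer line, were grown under the skin of C57BL/6 mice. The *sGC* Ctr library (labelled CT) came from *Gucy1b1* flox/flox mice and the *sGC* ∆PC library (labelled KO) from *Cspg4*-CreERT2::*Gucy1b1* flox/flox mice. *Gucy1b1* encodes the beta subunit of soluble guanylate cyclase, the receptor for nitric oxide. Both groups carried the floxed allele and were given tamoxifen in 5 doses when 4 weeks old. They were inoculated at 8 weeks, and tumors were taken 2 weeks later. Each library holds the cells of 3 pooled tumors, so each condition has 1 sample. The Cre is driven by *Cspg4*, which marks pericytes but can act in any cell that expresses this gene.

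MIF and D-dopachrome tautomerase, the product of *Ddt*, are small secreted proteins of 1 fold that act as inflammatory cytokines, although they are also found inside most cells. CD74 binds both at the cell surface and signals through its partner CD44. Inside antigen-presenting cells CD74 is the invariant chain, which escorts MHC class II molecules, and it is switched on with them by interferon gamma through CIITA. CD44 is also the receptor for hyaluronan and binds osteopontin. In tumors *Mif* is known as a gene raised by low oxygen, and the chemokine receptors CXCR2, CXCR4 and ACKR3 serve as further MIF receptors.

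In the GRCm38 annotation *Mif* (ENSMUSG00000033307) lies on the minus strand at chr10:75859353-75860240 with 2 exons in its longest transcript. *Ddt* (ENSMUSG00000001666) lies on the same strand at chr10:75771230-75773414, 85938 bases away, with 3 exons, and overlaps the model *Gm20441*, which was not among the counted genes. *Cd44* (ENSMUSG00000005087) lies on the minus strand at chr2:102811141-102901665 with 19 exons, opposite *Gm23731*. The annotation names 2 *Mif* pseudogenes, of which 0 were in the counted list. Whether reads of such copies were counted as *Mif* was not tested. Since the expression of *Mif* was followed over a range of hypoxia transcripts, the 250 bases before the RefSeq start of both ligand genes are shown (RefSeq, GRCm38.p6, minus strand, written 5′ to 3′). Capitals mark ACGTG or its reverse complement CACGT, the core of the site of hypoxia-inducible factors.
Mif, chr10:75860278-75860527: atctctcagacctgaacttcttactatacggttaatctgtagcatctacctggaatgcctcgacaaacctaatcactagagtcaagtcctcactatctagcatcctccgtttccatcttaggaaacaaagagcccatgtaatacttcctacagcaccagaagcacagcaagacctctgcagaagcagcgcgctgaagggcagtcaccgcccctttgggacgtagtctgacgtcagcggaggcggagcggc
Ddt, chr10:75773375-75773624: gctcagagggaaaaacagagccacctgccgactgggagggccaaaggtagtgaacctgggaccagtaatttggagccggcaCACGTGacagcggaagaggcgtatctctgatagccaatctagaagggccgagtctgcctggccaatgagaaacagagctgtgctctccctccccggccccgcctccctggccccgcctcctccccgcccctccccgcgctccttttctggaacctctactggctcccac
The *Mif* stretch held 0 matches. The *Ddt* stretch held 2 overlapping matches, one on each strand, since CACGTG contains both forms, which begin 168 and 169 bases before the start. The *Cd44* stretch held 1. Of 32851 promoters of the same length, 16.6% held a match. These are matches of letters only, and bases after the start were not searched.

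The *sGC* Ctr library held 15007 barcodes and the *sGC* ∆PC library 25631, of which 131 were shared (0.873% and 0.511%). Filters kept 12220 and 22498 cells with medians of 35776.5 and 8685 UMIs, so the control library was the deeper one. A class was given to 9417 and 14065 cells, and 563 and 1749 cells with markers of several classes were set aside. Cancer cells were the largest class (6863 and 11617 cells), followed by macrophages (1811 and 1744) and monocytes (365 and 308). The classes of fibroblasts (104 and 148), granulocytes (118 and 119), endothelial cells (ECs, 54 and 50), T cells (39 and 33), pericytes (36 and 26) and dendritic cells (18 and 14) were small. Every marker of each list had a UMI in its class except in dendritic cells, where 6 and 5 of 8 did and *Ccr7* and *Ccl22* were among the leading genes. RNA of other cells was present in every class: the summed level of the 4 cancer-cell markers in the other classes was between 4.69% and 9.47% of that in cancer cells. *Gucy1b1*, the check of the labels, had 58 UMIs in *sGC* Ctr pericytes and 12 in *sGC* ∆PC pericytes, which is 131 and 46.0 CPM with a log2 ratio of -1.51 (-2.54 to -0.60).

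Levels below are in CPM, the UMIs of a gene scaled to the total UMIs of its class, and ratios are log2 of *sGC* ∆PC over *sGC* Ctr. Ranges in parentheses are exact 95% intervals that cover counting error only. With 1 library per condition, the difference between conditions cannot be told apart from the difference between libraries, and no test was possible.

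*Mif* was found in every class at levels that lay close together. In *sGC* Ctr it was highest in fibroblasts at 1234 CPM (1190 to 1280), followed by cancer cells at 1198 (1194 to 1201) and pericytes at 1036 (943 to 1135). Macrophages (868), T cells (807), granulocytes (758) and monocytes (745) followed, and ECs (566) and dendritic cells (508) were lowest. Fibroblasts and cancer cells did not differ beyond counting error, nor did the neighbors between macrophages and monocytes, nor ECs and dendritic cells, while pericytes stood below cancer cells and above macrophages. The highest class was 2.43-fold (1.92 to 3.12) above the lowest. In *sGC* ∆PC fibroblasts (1382) and cancer cells (1326) again led and ECs (571) were lowest, a span of 2.42-fold (2.22 to 2.65).

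Because cancer cells made up most of the RNA, they also held most *Mif*. Their part of the *Mif* UMIs of all classes was 94.7% in the control and 95.3% in the *sGC* ∆PC library, against 92.9% and 93.3% of all UMIs. The share of *Mif* transcripts was thus near the share of RNA, with macrophages holding 4.02% and 3.52%. When each cell was thinned to 2000 UMIs, *Mif* was found in 83.9% (83.1 to 84.8) of *sGC* Ctr cancer cells and 91.5% (91.0 to 92.0) of those in *sGC* ∆PC. It was found in 53.7% and 51.0% of ECs, the lowest shares apart from those of the dendritic cells (44.4% and 35.7%). Of the *Mif* level in the other classes, 5.35% to 19.8% would be reached by cancer-cell RNA at the measured share of its markers.

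Between the libraries *Mif* had ratios under 2-fold in each class. In cancer cells it went from 1198 to 1326 CPM, a log2 ratio of 0.15 (0.14 to 0.15), and in macrophages from 868 to 902, a ratio of 0.06 (0.03 to 0.09). The cancer-cell ratio moved beyond its interval with the processing, from 0.10 under a stricter gate to 0.30 (0.27 to 0.32) in thinned cells. In thinned macrophages the ratio was 0.03 (-0.05 to 0.10), an interval that held 0. Fibroblasts were higher by 0.16 (0.09 to 0.24), and pericytes were lower, with 1036 and 851 CPM and a ratio of -0.28 (-0.52 to -0.05). The ratio in pericytes was 0.12 (-0.17 to 0.41) under a stricter gate, which kept 21 and 16 cells. In ECs, with 566 and 571 CPM, the ratio was 0.01 (-0.14 to 0.16). Under the stricter gate it was -0.30 (-0.51 to -0.09). In dendritic cells (71 and 72 UMIs) the ratio was 0.41 (-0.08 to 0.91), but 1.36 (0.74 to 2.00) in cells low in cancer-cell RNA, and in T cells it was -0.35 (-0.72 to 0.02), against 0.46 (-0.19 to 1.14) under the stricter gate. Thus 3 classes had an interval above 0, 1 below 0 and 5 held 0.

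Intervals depend on the counts of a class, so the same was counted over all genes with 50 UMIs or more. An interval above 0 was found for 30.4% of genes in cancer cells, 10.5% in macrophages, 5.71% in monocytes, 9.97% in dendritic cells and 10.6% in granulocytes. The share was 5.35% in T cells, 7.84% in ECs, 5.95% in pericytes and 6.85% in fibroblasts. An interval below 0 was found for 22.0% of genes in dendritic cells, 7.48% in pericytes and 9.72% in fibroblasts, the classes where a member was lower. Such intervals were most common in cancer cells, the class with the most counts.

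**Figure D1:**
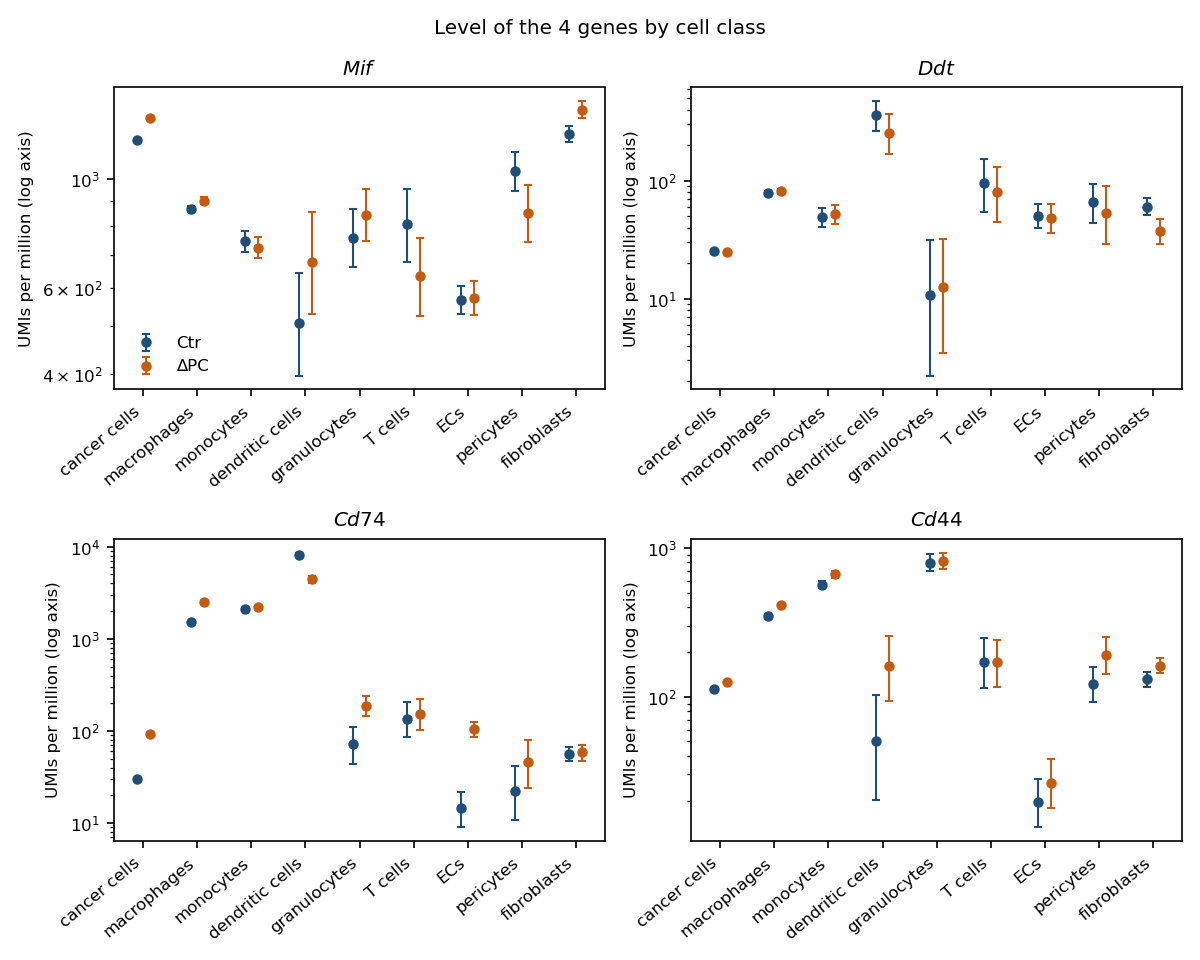
Levels of *Mif*, *Ddt*, *Cd74* and *Cd44* in CPM (log axis) in the 9 cell classes, with a point for each library and bars for the exact 95% Poisson interval. *Mif* stays within a 2.43-fold span over classes in *sGC* Ctr, while *Cd74* spans 562-fold.

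The second ligand, *Ddt*, was far less even. It was highest in dendritic cells, with 50 and 27 UMIs. The levels of 358 CPM (266 to 472) and 254 (167 to 370) stood above the next class in both libraries, beyond counting error only. These UMIs lay in few cells: a single *sGC* Ctr dendritic cell held 25 of the 50, and a single *sGC* ∆PC cell 8 of the 27. In thinned dendritic cells the share with a *Ddt* UMI was 22.2% (6.41 to 47.6) and 14.3% (1.78 to 42.8). Macrophages had 13.5% and 13.6%, within these ranges, so the share of cells did not set dendritic cells apart. T cells, macrophages, pericytes, fibroblasts, ECs and monocytes lay between 49.0 and 94.96 CPM in *sGC* Ctr with no neighbors apart beyond counting error. Cancer cells were below these at 25.3 CPM (24.8 to 25.8), and granulocytes had 3 and 4 UMIs (10.8 and 12.6 CPM). Macrophages thus stood above cancer cells in both libraries, the reverse of the order for *Mif*.

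*Ddt* was nearly the same in both libraries where it was counted best. Cancer cells had 25.3 and 25.0 CPM, a log2 ratio of -0.02 (-0.06 to 0.03), and macrophages 78.5 and 81.4, a ratio of 0.05 (-0.05 to 0.15). Fibroblasts were the exception, with 60.4 CPM from 143 UMIs against 37.3 from 67, a ratio of -0.70 (-1.14 to -0.27). That interval held 0 under the looser gate (-0.30, -0.69 to 0.08). A single *sGC* Ctr fibroblast held 28 of the 143 UMIs, while the highest *sGC* ∆PC fibroblast held 4 of the 67. In the other 8 classes the interval held 0.

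The receptor gene *Cd74* (ENSMUSG00000024610, plus strand of chromosome 18 at 60803848 to 60812652, with 9 exons and an overlap with *Mir5107*) had the widest span of the 4 genes. In *sGC* Ctr it stood at 8119 CPM (7654 to 8606) in dendritic cells, 2113 (2055 to 2173) in monocytes and 1509 (1493 to 1525) in macrophages, each apart from the next. T cells (137), granulocytes (71.9), fibroblasts (56.2), cancer cells (30.1), pericytes (22.6) and ECs (14.4) were far below. In *sGC* ∆PC the order at the top was dendritic cells (4432), macrophages (2521) and monocytes (2211), so that macrophages and monocytes changed places. Macrophages held 65.8% and 55.7% of the *Cd74* UMIs of all classes, and cancer cells, at a low level in many cells, held 22.4% and 37.6%. These shares and the order leave out cells that passed the filters but reached no class. Such cells held 45535 and 53855 *Cd74* UMIs, more than the 35286 and 45897 of macrophages.

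Between the libraries *Cd74* differed more than the other members in cancer cells, macrophages, ECs, granulocytes and pericytes, although its interval in pericytes held 0. In monocytes, dendritic cells, T cells and fibroblasts another member had the larger ratio in size. *Cd74* was higher in *sGC* ∆PC with an interval above 0 in 5 classes, lower in dendritic cells, and in 3 classes the interval held 0. Macrophages went from 1509 to 2521 CPM, a log2 ratio of 0.74 (0.72 to 0.76), under the 2-fold limit that 0.706% of 11476 genes passed upward in this class. Monocytes stood at 2113 and 2211 CPM, a ratio of 0.07 (0.01 to 0.12) whose direction depended on the gate, at -0.17 (-0.22 to -0.13) under the looser and 0.46 (0.37 to 0.55) under the stricter one. Of the 4 genes 0 were past 2-fold there, against 0.463% of 6916 genes. Dendritic cells ran the other way, with 1134 UMIs in 18 cells against 471 in 14. Their levels were 8119 and 4432 CPM, a ratio of -0.87 (-1.03 to -0.72). These UMIs lay in few cells: 5 *sGC* Ctr cells held 805 of the 1134, and 5 *sGC* ∆PC cells 399 of the 471. The interval does not cover this spread among cells. The share of thinned dendritic cells with a *Cd74* UMI was not lower, at 83.3% (58.6 to 96.4) and 92.9% (66.1 to 99.8).

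In cancer cells *Cd74* went from 30.1 CPM (29.5 to 30.6) to 92.2 (91.2 to 93.3), a log2 ratio of 1.62 (1.59 to 1.65). It was the single member past 2-fold there, where 4.08% of 15235 genes were higher by at least 2-fold and 0.144% lower. Macrophage-marker RNA in cancer cells moved with it, from 0.805% to 1.81% of the macrophage level. At that share, macrophage RNA would give 12.1 CPM of *Cd74* in the control and 45.7 in the *sGC* ∆PC library, which is 40.4% and 49.6% of the level found. In cancer cells without a UMI of *C1qa*, *C1qb* or *C1qc* (1054 and 2633 cells), *Cd74* was 17.7 CPM (16.5 to 19.0) and 66.9 (64.4 to 69.5). Cells without these UMIs were shallower, and the part of macrophage RNA in the result was not tested further. The estimate, here and in the classes below, covers RNA of gated macrophages only. Cells of no class that were high in *Cd74* stood at 10828 and 9066 CPM of it. Their macrophage-marker RNA was at 10.1% and 14.4% of the macrophage level, and RNA from them was not estimated.

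**Figure D2:**
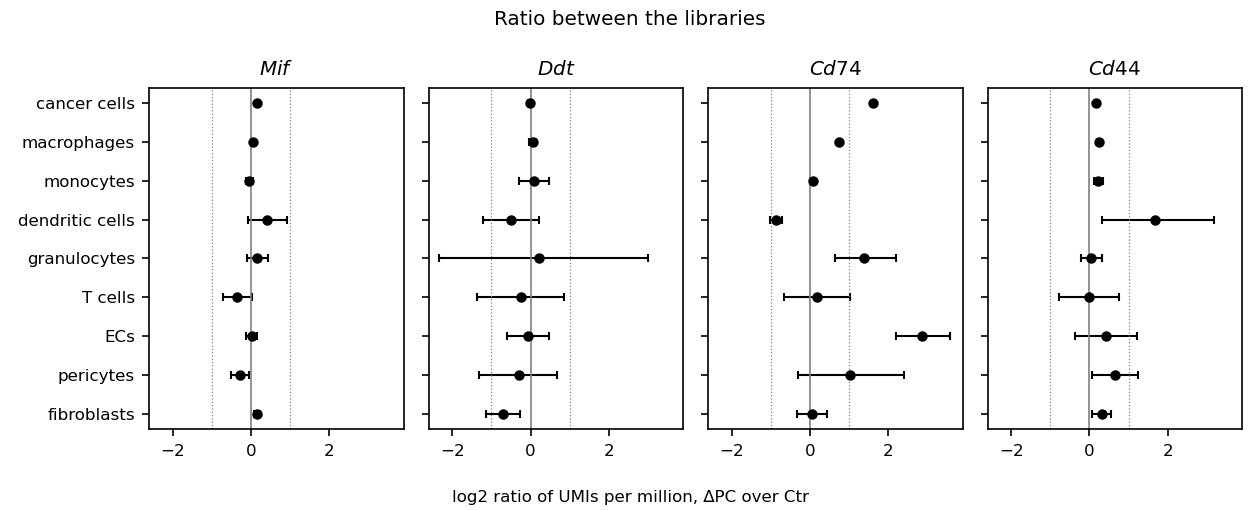
Log2 ratios of *sGC* ∆PC over *sGC* Ctr for the 4 genes in each class, with exact 95% intervals for counting error, a line at 0 and dotted lines at 2-fold. The values of *Cd74* lie between -0.87 in dendritic cells and 2.86 in ECs, while those of *Mif* lie between -0.35 and 0.41.

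In ECs *Cd74* went from 22 to 115 UMIs, or from 14.4 CPM (9.05 to 21.9) to 105 (86.6 to 126), a log2 ratio of 2.86 (2.19 to 3.59). It was the 1 member past 2-fold among 6031 genes tested, of which 0.862% were. These UMIs were not spread evenly: 2 of the 50 *sGC* ∆PC ECs held 45 and 41 of them, with 22 and 20 UMIs of MHC class II genes. Their EC markers were at 1.30 and 1.12 of the typical EC level, and they had 2 and 0 UMIs of macrophage markers. The highest *sGC* Ctr cell held 6. Without the 2 cells the levels were 14.4 and 27.6 CPM, a ratio of 0.93 (0.08 to 1.80). Macrophage RNA at its share over all ECs would give 12.7 CPM in *sGC* Ctr and 40.8 in *sGC* ∆PC, which is 87.9% and 38.8% of the full *Cd74* level. In *sGC* ∆PC this estimate is above the 27.6 CPM left without the 2 cells. The part of macrophage RNA in the ratio of 0.93 was not tested.

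The share of ECs with a *Cd74* UMI was also counted at equal depth. At 2000 UMIs per cell *Cd74* was found in 7.41% (2.06 to 17.9) of *sGC* Ctr ECs and in 6.12% (1.28 to 16.9) of *sGC* ∆PC ECs, against 25.9% and 46.0% at full depth, where the median cell had 26163 and 19997 UMIs. These shares lie near those of the pericytes at 2.78% and 9.52%, a class in which the gene had 10 and 12 UMIs in all. So few cells had a UMI at this depth that a difference in the share could not be detected in either direction.

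In pericytes, the class that the Cre is meant to reach, *Cd74* stood at 22.6 CPM (10.8 to 41.5) and 46.0 (23.8 to 80.3), a log2 ratio of 1.03 (-0.31 to 2.40). The interval held 0, so a difference was not detectable at this depth. With 22 UMIs in both libraries together the gene was under the minimum of 50 for the background, where 1.21% of 2152 pericyte genes were past 2-fold upward. Fibroblasts held 133 and 105 UMIs, 56.2 and 58.5 CPM, a ratio of 0.06 (-0.33 to 0.44). A single *sGC* Ctr fibroblast held 104 of the 133, with 157 UMIs of MHC class II genes. Without cells at 1000 CPM of *Cd74* or more (1 and 5 cells), the levels were 12.4 and 41.6 CPM and the ratio was 1.75 (1.11 to 2.42). Among fibroblast genes 0.995% of 7436 were past 2-fold upward. Macrophage-marker RNA was again higher in *sGC* ∆PC, at 2.02% against 1.17% of the macrophage level over all fibroblasts. At these shares macrophage RNA would give 51.0 CPM of *Cd74* in *sGC* ∆PC fibroblasts and 17.7 in the control. These are 87.3% and 31.5% of the full levels, and the full control level includes the cell with 104 UMIs. Both estimates lie above the 41.6 and 12.4 CPM left without the high cells. The part of macrophage RNA in the ratio of 1.75 was not tested.

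Granulocytes held 20 and 60 UMIs of *Cd74*, or 71.9 and 189 CPM, a log2 ratio of 1.39 (0.64 to 2.20), and 1.66% of 1326 genes were past 2-fold upward. A single *sGC* ∆PC granulocyte held 20 of the 60 UMIs, while the highest *sGC* Ctr granulocyte held 2. Under a stricter gate with 78 and 58 cells the ratio was -0.05 (-1.28 to 1.14). Macrophage RNA would give 52.1% and 49.5% of the granulocyte level. In granulocytes without a *C1q* UMI (71 and 60 cells) *Cd74* stood at 79.6 CPM (42.4 to 136) and 65.3 (31.3 to 120). In those with a *C1q* UMI (47 and 59 cells) it stood at 60.9 CPM (24.5 to 125) and 303 (225 to 399). The part of macrophage RNA in the ratio of 1.39 was not tested. In T cells *Cd74* had 23 and 29 UMIs and a ratio of 0.18 (-0.66 to 1.03), with 0 of the 3 members tested past 2-fold against 1.00% of 897 genes.

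The higher level in macrophages went with a larger share of cells that held the transcript. At 2000 UMIs, 28.3% (26.2 to 30.5) of *sGC* Ctr macrophages had a *Cd74* UMI and 48.5% (45.9 to 51.1) of *sGC* ∆PC macrophages, against 3.39% and 14.7% of cancer cells. Cells with at least 6 UMIs were 15.2% (13.6 to 17.0) and 27.7% (25.4 to 30.0), while those with over 20 were 6.76% (5.64 to 8.02) and 9.12% (7.71 to 10.7). In monocytes the shares were 45.5% (40.3 to 50.7) and 49.1% (43.3 to 55.03), and in dendritic cells 83.3% and 92.9%. Macrophages of *sGC* ∆PC hence came near the share that monocytes had in both libraries.

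Most *Cd74* of macrophages lay in those with MHC class II. Thinned macrophages with at least 1 UMI of the class II genes *H2-Aa*, *H2-Ab1* or *H2-Eb1* were 28.9% of the *sGC* Ctr and 48.6% of the *sGC* ∆PC class, and held *Cd74* at 5728 and 5144 CPM. Those without such a UMI held 98.99 and 135 CPM, and 10.8% and 17.9% of them had a *Cd74* UMI. The class II genes differed between the libraries together with *Cd74*, so this division is not independent of it and describes where the transcript was found. *Mif* did not follow this division, with 900 CPM without and 902 with class II in *sGC* Ctr, and 894 and 943 in *sGC* ∆PC.

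**Figure D3:**
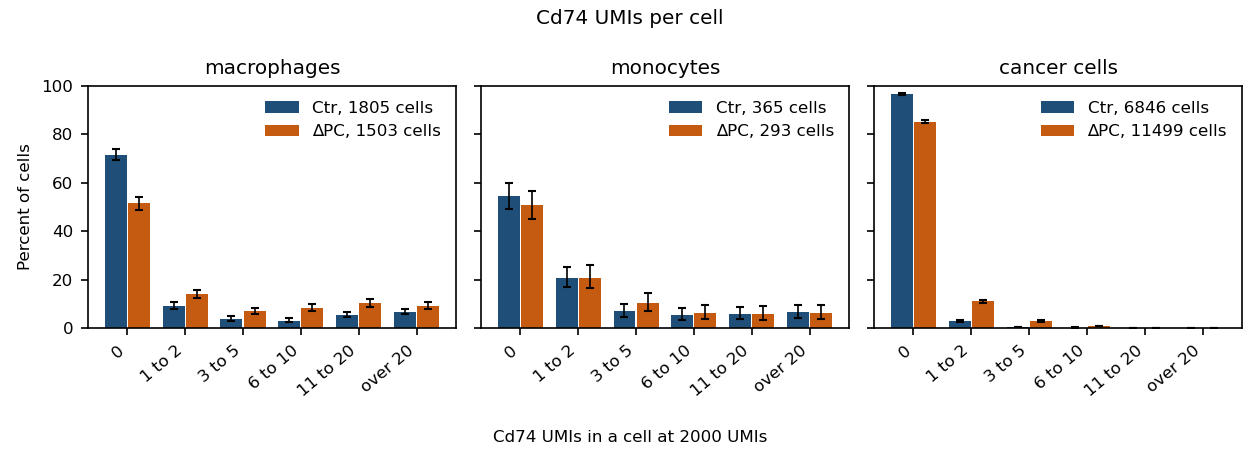
Share of cells (percent) by the number of *Cd74* UMIs per cell after thinning to 2000 UMIs, with exact 95% binomial intervals, for macrophages, monocytes and cancer cells of both libraries. In macrophages the cells with 0 UMIs are 71.7% in *sGC* Ctr and 51.5% in *sGC* ∆PC.

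The co-receptor *Cd44* was led by granulocytes, at 798 CPM (696 to 910) in *sGC* Ctr and 823 (727 to 929) in *sGC* ∆PC. Monocytes (568 and 666) and macrophages (351 and 413) followed in both libraries, each apart from its neighbor beyond counting error. T cells, fibroblasts and pericytes (172, 131 and 122 CPM in *sGC* Ctr) did not differ from one another beyond it, and cancer cells stood at 112 and 126. ECs were lowest with 30 and 29 UMIs, 19.7 and 26.5 CPM, a span of 40.5-fold in *sGC* Ctr and 31.1-fold in *sGC* ∆PC. At 2000 UMIs *Cd44* was found in 3.70% and 6.12% of ECs, 47.6% and 50.8% of macrophages and 69.9% and 75.3% of granulocytes.

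*Cd44* was slightly higher in *sGC* ∆PC in the large classes. The log2 ratio was 0.18 (0.16 to 0.19) in cancer cells, 0.24 (0.19 to 0.28) in macrophages and 0.23 (0.12 to 0.34) in monocytes. Pericytes had 54 and 50 UMIs, 122 and 192 CPM, and a ratio of 0.65 (0.07 to 1.23), and fibroblasts 131 and 162 CPM with a ratio of 0.31 (0.07 to 0.54). The fibroblast ratio depended on the processing and ran from below 0 to past 2-fold higher. In ECs (0.43, -0.36 to 1.21), granulocytes and T cells the interval held 0. Dendritic cells had 7 and 17 UMIs and a ratio of 1.67 (0.33 to 3.19), too few for the minimum of 50, and of the 592 dendritic cell genes that reached it 2.87% were past 2-fold upward.

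Cells with both receptor transcripts were counted at 2000 UMIs. In macrophages they were 11.2% (9.77 to 12.7) in *sGC* Ctr and 24.0% (21.8 to 26.2) in *sGC* ∆PC, where the product of the separate shares was 13.5% and 24.7%. In monocytes they were 26.8% (22.4 to 31.7) and 32.8% (27.4 to 38.5), and in cancer cells 0.672% and 3.66%. ECs had 1 such cell of 54 in *sGC* Ctr and 0 of 49 in *sGC* ∆PC, which allows a share of up to 7.25%. Pericytes had 0 of 36 and 0 of 21, which allows up to 9.74% and 16.1%. These limits are for cells in which both transcripts are detected at a depth that yields few UMIs of either gene in these classes, and not for cells that express them. In *sGC* Ctr, macrophages with class II had *Cd44* at 314 CPM (281 to 350), against 366 (343 to 390) without. In *sGC* ∆PC the levels were 377 (346 to 410) and 396 (365 to 428). The intervals overlapped only between 343 and 350 CPM in *sGC* Ctr and over most of their range in *sGC* ∆PC, which does not show equal levels. A *Cd44* UMI was found in 43.5% of *sGC* Ctr macrophages with class II and 49.3% without. In *sGC* ∆PC these shares were 48.7% and 52.8%.

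The other MIF receptors differed in the classes that held them. *Cxcr2*, the receptor that guides neutrophils, stood at 715 and 487 CPM in granulocytes (199 and 155 UMIs), a log2 ratio of -0.55 (-0.87 to -0.24), and at 4.69 CPM or less in the other classes with over 1 UMI. *Cxcr4*, the receptor of CXCL12, was at 61.3 and 83.6 CPM in macrophages (0.45, 0.34 to 0.55), 75.9 and 101 in monocytes (0.42, 0.12 to 0.71) and 57.1 and 127 in ECs (87 and 139 UMIs). The EC ratio was 1.15 (0.75 to 1.56), past 2-fold. Granulocytes had *Cxcr4* at 82.7 and 59.7 CPM from 23 and 19 UMIs, and T cells at 23.7 and 26.6 from 4 and 5. In cancer cells *Cxcr4* was low, at 1.35 and 3.56 CPM, but past 2-fold with a ratio of 1.40, as were 4.08% of genes there. Macrophage-marker RNA was also higher in *sGC* ∆PC cancer cells, and its part in this value was not tested. *Ackr3*, an atypical receptor of the same chemokine, was found in fibroblasts at 49.8 and 77.4 CPM (0.64, 0.27 to 1.00) and in ECs at 31.5 and 37.4. *Cops5*, whose product binds MIF within the cell, stood at 82.0 and 81.3 CPM in cancer cells, and in 6 of 6 classes with enough UMIs its interval held 0.

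The MHC class II list was set beside *Cd74*, whose product escorts these molecules. Of its 8 genes (*H2-Aa*, *H2-Ab1*, *H2-Eb1*, *H2-DMa*, *H2-DMb1*, *Ciita*, *Ctss* and *Sppl2a*), 8 had an interval above 0 in macrophages, where 10.5% of all genes did, and 0 were past 2-fold, with a median log2 ratio of 0.64 against -0.05 over all genes. *H2-Ab1*, a chain of the class II molecule I-A, went from 594 to 1025 CPM (0.79, 0.76 to 0.82), and *Ciita*, the class II transactivator, from 13.4 to 26.4 (0.98, 0.77 to 1.19). In cancer cells 5 of 8 were past 2-fold, against 4.08% of all genes, with a median of 1.21, and *H2-Aa* stood at 11.97 and 36.3 CPM. Macrophage-marker RNA in cancer cells also went from 0.805% to 1.81% of the macrophage level, and its part in these values was not tested. In monocytes 0 of 8 were past 2-fold, with *H2-Ab1* at 0.01 and intervals below 0 for *H2-Aa* (-0.10) and *Ctss* (-0.15), and in dendritic cells *H2-Ab1* was lower, from 2563 to 941 CPM (-1.45, -1.78 to -1.12).

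**Figure D4:**
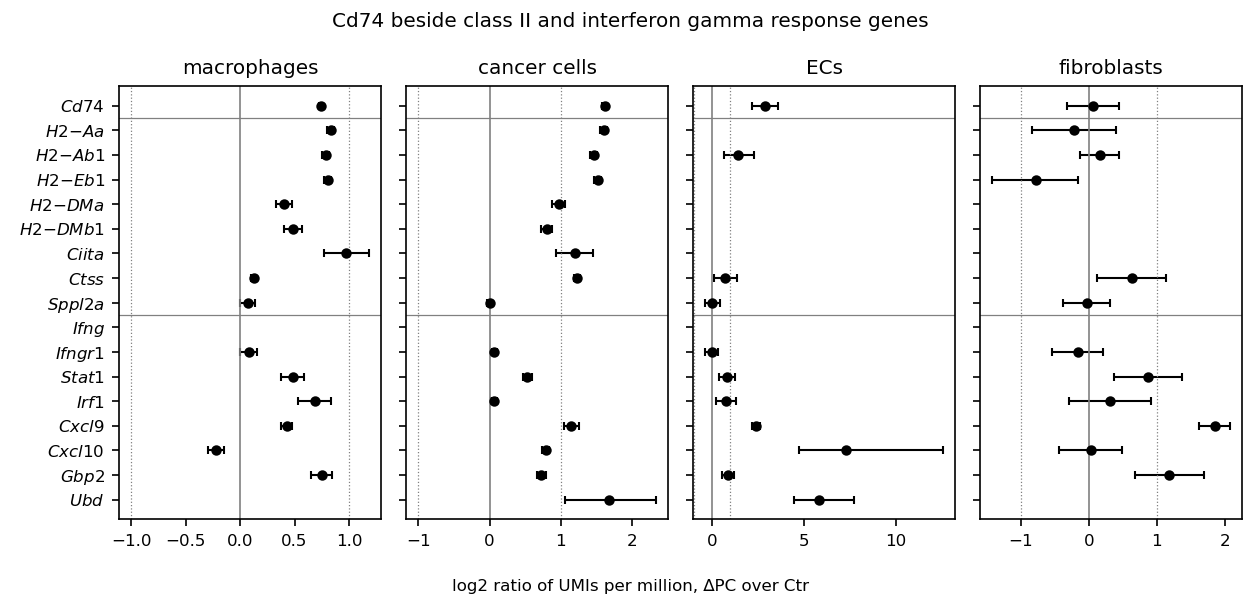
Log2 ratios of *sGC* ∆PC over *sGC* Ctr for *Cd74* and for genes of the MHC class II and interferon gamma lists with 50 UMIs or more over both libraries, in macrophages, cancer cells, ECs and fibroblasts, with exact 95% intervals. In macrophages all 8 genes of the class II list lie above 0, from 0.07 for *Sppl2a* to 0.98 for *Ciita*. In ECs *Cxcl9*, *Cxcl10* and *Ubd* lie past 2-fold.

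Genes of the interferon gamma response were higher in ECs of *sGC* ∆PC. Of 7 with enough UMIs, 6 had an interval above 0 and 3 were past 2-fold, against 7.84% and 0.862% of all EC genes. *Cxcl9*, a chemokine that attracts T cells, went from 196 to 738 UMIs, or from 129 to 673 CPM (2.39, 2.16 to 2.62). *Cxcl10*, a related chemokine, went from 1 to 111 UMIs (7.27, 4.76 to 12.6), and *Ubd*, a ubiquitin-like modifier, from 4 to 165 (5.84, 4.46 to 7.73). In pericytes *Cxcl9* alone reached the minimum, with 5 and 166 UMIs (5.82, 4.56 to 7.46). Fibroblasts had *Cxcl9* at 93.3 and 336 CPM (1.85, 1.62 to 2.08), macrophages at 243 and 327 (0.43, 0.37 to 0.48), and monocytes at 161 and 119 (-0.44, -0.67 to -0.20). Other values of the list were lower in *sGC* ∆PC: *Cxcl10* was at -1.04 (-1.22 to -0.86) in monocytes and -0.22 (-0.29 to -0.15) in macrophages. In granulocytes the median of 4 genes was -0.77, with *Gbp2*, a guanylate-binding protein, at 169 and 66.0 CPM (-1.36, -2.17 to -0.59) and *Ifngr1*, a chain of the interferon gamma receptor, at 151 and 75.4. Both were past 2-fold lower, as were 1.96% of granulocyte genes. *Ifng* itself, the cytokine, had 16 and 10 UMIs in T cells and 4 and 17 in cancer cells.

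For *Cd44*, a list of 10 ligands, their makers and partners differed little. *Spp1*, which encodes osteopontin, stood at 1882 and 2207 CPM in cancer cells (0.23, 0.23 to 0.23), 1279 and 1646 in macrophages (0.36, 0.34 to 0.39) and 8326 and 8510 in fibroblasts, the class where it was highest. The median ratio of the list was 0.05 in cancer cells, -0.10 in macrophages and 0.02 in fibroblasts, with 0 genes past 2-fold in each. *Hmmr*, a hyaluronan receptor of dividing cells, was lower in macrophages, from 32.0 to 19.3 CPM (-0.73, -0.91 to -0.54). *Msn*, whose product moesin ties CD44 to the cell cortex, stood at 760 and 923 CPM in ECs (0.28, 0.16 to 0.40).

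Within classes, *Mif* followed the hypoxia and glycolysis transcripts. Cells of each library were split into 4 bins of equal size by the summed share of 13 such genes, among them *Slc2a1* (glucose uptake), *Ldha* (lactate formation) and *Vegfa* (vessel growth), and *Mif* was not in the list. In cancer cells of *sGC* Ctr *Mif* stood at 745, 1027, 1218 and 1732 CPM from the lowest bin to the highest, 2.33-fold in all. In *sGC* ∆PC it stood at 921, 1203, 1415 and 1845 CPM, 2.00-fold. It was higher at each step in both libraries. With cells thinned to 2000 UMIs before they were split, the top bin was 2.07-fold and 1.59-fold above the bottom.

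Macrophages and fibroblasts, added after the values of cancer cells were seen, showed the same order. In macrophages *Mif* went from 495 to 1409 CPM in *sGC* Ctr (2.84-fold) and from 547 to 1337 in *sGC* ∆PC (2.45-fold). In fibroblasts it went from 376 to 2264 CPM (6.01-fold) and from 660 to 2066 (3.13-fold). The bins are of cells from the same library and describe variation among cells, with no test. Depth differed between bins, with medians of 7143, 3051, 3104 and 16868 UMIs in *sGC* ∆PC fibroblasts.

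The other members differed from this pattern in part. *Ddt* in the top bin of cancer cells was 1.07-fold (*sGC* Ctr) and 0.968-fold (*sGC* ∆PC) the bottom bin, and *Cd44* was 1.37-fold and 1.19-fold. *Cd44* was higher at each step in *sGC* Ctr, from 96.1 over 106 and 112 to 132 CPM. *Cd74* in cancer cells stood at 29.3 and 29.5 CPM in the bottom and top bin of *sGC* Ctr. In *sGC* ∆PC it stood at 69.2 and 122, 1.77-fold, and was higher at each step. This depended on depth: with *sGC* ∆PC cancer cells thinned before they were split, *Cd74* stood at 119, 159, 180 and 146 CPM. The top bin was then 1.23-fold the bottom, and *Cd74* was no longer higher at each step. In macrophages *Cd74* was lower in the top bin than in the bottom bin, opposite to *Mif*. It stood at 1609, 1796, 1503 and 1080 CPM in *sGC* Ctr, not lower at each step. In *sGC* ∆PC it stood at 3429, 2681, 2329 and 1751 CPM, lower at each step. The bins of macrophages were not repeated with thinned cells. In each bin of macrophages *Cd74* was thus higher in *sGC* ∆PC than in *sGC* Ctr.

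**Figure D5:**
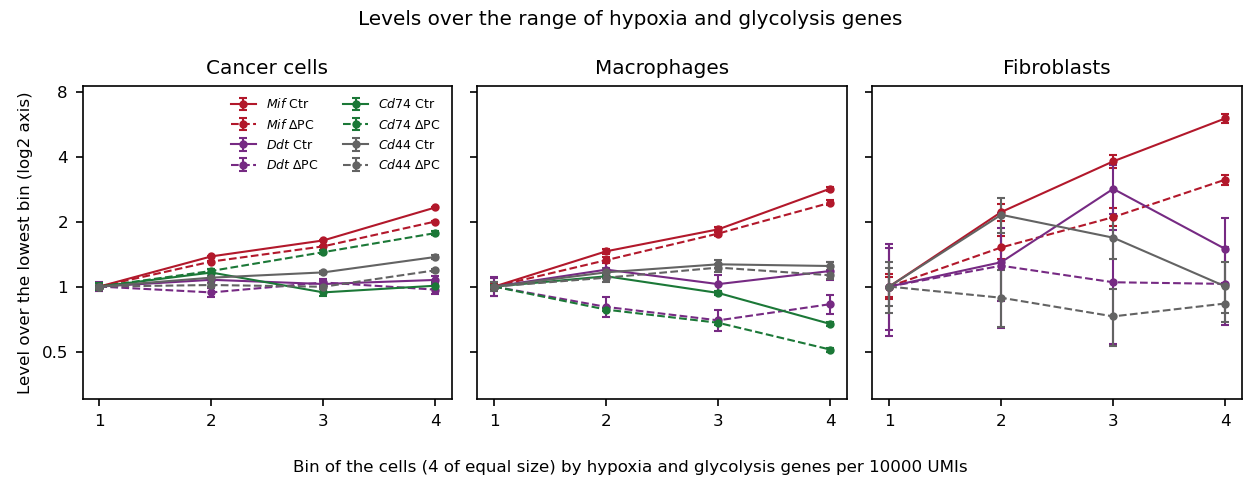
Levels of the 4 genes relative to the lowest bin (log2 axis), by bin of cells ordered by the hypoxia and glycolysis list, in cancer cells, macrophages and fibroblasts of each library, with exact 95% Poisson intervals, and without *Cd74* in the fibroblast panel, since 1 cell holds most of its UMIs in *sGC* Ctr. *Mif* is higher at each step in all 3 classes and both libraries.

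In cancer cells, macrophages and ECs the median of the list stood close to 0 between the libraries. In cancer cells 10 of its 13 genes had an interval above 0, against 30.4% of all genes, with 0 past 2-fold and a median log2 ratio of 0.06. In macrophages the median was 0.06 as well, in fibroblasts 0.16 and in ECs -0.07. It was 0.02 in monocytes, 0.39 in dendritic cells, 0.37 in granulocytes, -0.31 in T cells and -0.20 in pericytes. The gene of the list furthest from 0 in macrophages was *Vegfa*, at 0.83 (0.72 to 0.94). *Mif* itself had ratios of 0.15 in cancer cells, 0.06 in macrophages, 0.16 in fibroblasts and 0.01 in ECs.

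Over the 18 values of 9 classes and both libraries, the genes with the pattern most like each member were listed from 14546 genes by Pearson's r of log2(CPM + 1). The points share libraries, depth and RNA of other cells, and r is a description. *Cd74* was closest to *H2-Eb1* (0.97) and *Cd86* (0.95), followed by *Tnip3*, *Aif1* and *Prkcd*. *Mif* was closest to *Epb41l3* and *Nfix* (0.89 for both), then *Wls*, *Rab34* and *Rac3*. *Ddt* was closest to *Psme2* (0.95), *Tmem123*, *Lactb*, *Ago1* and *H2-M3*. Each of these 5 genes was highest in dendritic cells, as *Ddt* was, from as few as 7 and 5 UMIs of *Ago1* and 8 and 5 of *H2-M3*. How far r rests on these points was not tested. *Cd44* was closest to *Cebpb* (0.91), *Ccl6*, *Slc11a1*, *Hk2* and *Pfkfb4*. Between the members r was 0.58 for *Ddt* and *Cd74*, 0.33 for *Cd74* and *Cd44* and 0.24 for *Mif* and *Cd44*. It was -0.42 for *Mif* and *Ddt*, -0.40 for *Mif* and *Cd74* and -0.37 for *Ddt* and *Cd44*.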

How the data were processed

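Single-cell RNA was measured with the 10x Genomics 3′ protocol in 1 library per condition, each of 3 pooled LLC tumors. Reads were counted by the authors with Cell Ranger 6.1.1 on mm10, and UMI counts per gene and barcode were deposited. The cluster labels of the study were not used here.

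Barcodes with 10% or more mitochondrial UMIs were removed, as were those whose number of UMIs or of genes lay over 3 median absolute deviations from the median of their library on a log scale. A cell joined a class when its marker list reached 0.5 of the typical level of that class with at least 3 markers found. Cells with another list at 0.25 or more were set aside as mixed. No doublet caller was run. The details of this gate were set after the counts were seen, and the members and gene lists were chosen with earlier results of these data known.

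Counts were summed per class and library as CPM, with exact Poisson, binomial (Clopper-Pearson) and conditional intervals at 95%. Several reads of a molecule count once, and intervals cover counting error only. Shares of cells were taken after thinning to 2000 UMIs, with shallower cells left out. The share of all genes past 2-fold was taken over genes with 50 UMIs or more in the class, summed over libraries, and a pseudocount of 0.5 counts. The UMIs of the classes ranged from 106266 in dendritic cells to 399272887 in cancer cells. Named genes were the 4 members, 6 lists of their pathways, *Gucy1b1*, and for each member the 5 genes with the highest correlation over classes and libraries. RNA of another class was estimated as the level of its marker list relative to that class in the same library. Steps were tested on simulated data. Alternatives were other cell filters, stricter and looser gates, mixed cells kept, thinned cells, cells low in cancer-cell RNA or without *C1q* UMIs, the mean over cells and scaling to the median gene. Python 3.11.15, numpy 2.4.6, scipy 1.17.1, pandas 2.3.3 and matplotlib 3.10.9 were used.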

Additional observations from a re-analysis of the deposited data

Results flagged for a closer look

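Cells that passed the filters but reached no class (2240 in *sGC* Ctr and 6684 in *sGC* ∆PC) enter none of the comparisons above, yet they held transcripts of all 4 genes above the limit that a count of 0 allows. *Mif* stood in them at 864 CPM in *sGC* Ctr and 1176 in *sGC* ∆PC. *Ddt* stood at 43.2 and 42.1 CPM. *Cd74* stood at 1393 and 1447 CPM. *Cd44* stood at 179 and 242 CPM. Of these cells 466 (20.8%) and 1028 (15.4%) exceeded the mean *Cd74* level of macrophages and held 96.4% and 85.8% of the *Cd74* UMIs of the group, with macrophage-marker RNA at 10.1% and 14.4% of the macrophage level. Picked by their *Cd74*, these 466 and 1028 cells stood at 10828 and 9066 CPM of it, against 8119 and 4432 in dendritic cells, the highest class.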

How the results depend on the processing

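No paired analysis was possible because each condition has 1 library, and replicates could not be left out in turn. Of the alternatives for log2 ratios of a member in a class, 76 moved the value beyond counting error, 1 reversed a ratio past 2-fold and 267 did neither. The cause was not tested. In macrophages, ECs, pericytes and fibroblasts the values below are among those that moved, and the list is not complete. Under the alternatives *Cd44* in fibroblasts ran from below 0 to past 2-fold higher. *Cd44* in pericytes also reached past 2-fold higher, and *Ddt* in ECs and in pericytes past 2-fold lower. With the stricter gate *Mif* was 0.093 in macrophages, -0.30 in ECs and 0.12 in pericytes, and *Ddt* was 0.20 in macrophages. *Cd74* was 0.67 in macrophages, -0.57 in fibroblasts and -0.052 in granulocytes (1.39 in the report), the 1 ratio past 2-fold that changed sign. Smaller ratios whose interval was without 0 also changed sign, among them *Mif* in pericytes, *Cd44* in fibroblasts and *Cd74* in monocytes. In the remaining classes *Cd74* in monocytes ranged from -0.17 to 0.46 and in T cells from -0.76 to 0.64. *Mif* ranged from 0.10 to 0.30 in cancer cells, from -0.09 to 1.36 in dendritic cells and from -0.47 to 0.46 in T cells. With the looser gate *Cd74* was 0.68 in macrophages and 0.53 in fibroblasts. With mixed cells kept *Mif* was 0.089 in macrophages and *Cd74* 3.85 in ECs. Thinned to 2000 UMIs, *Mif* was 0.32 in ECs and 0.30 in fibroblasts, *Cd74* 0.57 in macrophages, 1.31 in ECs and 1.18 in fibroblasts, and *Cd44* 0.14 in macrophages. In cells without *C1q* UMIs *Mif* was 0.27 in ECs and -0.015 in fibroblasts, and *Cd74* 4.14 and 3.87. The EC value of *Cd74* rests on 5 UMIs in 17 *sGC* Ctr cells and 48 in 15 *sGC* ∆PC cells. A single *sGC* ∆PC EC held 41 of the 48. The fibroblast value rests on 2 UMIs in 28 cells and 21 in 46. In cells low in cancer-cell RNA, or under a mitochondrial limit of 5%, *Cd74* in fibroblasts was -0.64 or 1.82. As the mean over cells, macrophages had 0.088 for *Mif*, -0.15 for *Ddt*, 0.61 for *Cd74* and 0.12 for *Cd44*, and fibroblasts 1.56 for *Cd74*. Relative to the median gene, macrophages had 0.11 for *Mif*, 0.79 for *Cd74* and 0.29 for *Cd44*. Without cells high in *Cd74*, a setting chosen after seeing the data, *Cd74* was 0.93 in ECs and 1.75 in fibroblasts. The *sGC* ∆PC levels behind these 2 ratios, 27.6 and 41.6 CPM, lie below the estimates of macrophage RNA, 40.8 and 51.0 CPM. The control level of fibroblasts also lies below its estimate, while that of ECs lies above it. *Cd74* was higher in *sGC* ∆PC in macrophages (0.57 to 0.79), cancer cells (1.47 to 2.43) and ECs (0.93 to 4.14), and lower in dendritic cells (-1.16 to -0.53), under each alternative. The 4.14 in ECs is the value in cells without *C1q* UMIs, where 1 cell held most of the UMIs. In dendritic cells 5 cells of each library held most of the *Cd74* UMIs, and the ratio without them was not tested. Depth limits pericytes most among the stromal classes, with 10 and 12 UMIs of *Cd74*.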

Other observations

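Cells with markers of several classes (563 in *sGC* Ctr and 1749 in *sGC* ∆PC) held *Mif* at 853 and 1162 CPM, *Ddt* at 34.9 and 38.3, *Cd74* at 272 and 613 and *Cd44* at 176 and 212. Their cancer-cell marker RNA was at 67.3% and 70.8% of the cancer-cell level and their macrophage-marker RNA at 18.2% and 25.0% of the macrophage level. Barcodes removed by the filters (2787 and 3133) held *Mif* at 540 and 942 CPM, *Ddt* at 20.2 and 21.04, *Cd74* at 204 and 256 and *Cd44* at 219 and 184.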
